A study of Mus musculus with 8 samples.

Results

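The 44 genes described here encode enzymes that break down amino acids, make arginine and the creatine precursor guanidinoacetate, or move methyl and single-carbon groups in mouse kidney. They were chosen by name, with earlier results of these data known, from the 54251 genes of an expression table. Of the 44, 43 passed the filter for testing, a mean of at least 0.5 FPKM (fragments per kilobase of a gene, relative to the size of the library). The other, Prodh, a proline dehydrogenase, was near 0 FPKM in every library. The enzymes fall into 9 sets by the amino acid or the reaction they serve.

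The study crossed loss of G9a, the histone H3 lysine 9 methyltransferase encoded by Ehmt2, with ischemia-reperfusion (IR), an injury in which blood flow to a kidney is stopped and then restored. All mice were adult males of the C57BL/6 strain, and the 4 groups held 2 libraries each, each library being a pool of RNA from 3 mice. KO_IR was kidney from mice with G9a knocked out in kidney, taken on day 3 after the left renal pedicle had been clamped for 45 min, and WT_IR was kidney from wild-type mice after the same operation. KO and WT were kidneys of the same genotypes labelled without ischemia-reperfusion. The labels do not say whether these came from mice without an operation or were the uninjured kidneys of clamped mice, and they do not name the promoter or Cre line that drove the kidney deletion.

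Ehmt2 was measured at 27.3 and 26.3 FPKM in KO_IR, 34.5 and 35.8 in WT_IR, 28.1 and 26.4 in KO, and 33.4 and 30.3 in WT. Its mean in KO_IR was 76.2% of that in WT_IR and its mean in KO was 85.4% of that in WT. All KO_IR and KO libraries were below all WT_IR and WT libraries, but a level over the whole gene model in whole kidney does not show the deletion itself, so genotype is taken from the labels. The libraries held 14965670 to 17596690 gene fragments, and the values summed to 293646 and 298778 FPKM in the WT_IR libraries against 362026 to 427188 in the other 6. In whole kidney RNA, fewer cells of a type and less RNA per cell cannot be told apart.

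The proximal tubule, the segment that reabsorbs filtered amino acids, is a main site of their metabolism outside the liver. It makes arginine from citrulline for the rest of the body, starts creatine synthesis, and oxidises glycine, proline, tyrosine, tryptophan and the branched-chain amino acids. Several of these routes pass single-carbon or methyl groups to folate or take them from S-adenosylmethionine, the donor that methyltransferases such as G9a also use.

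Transcripts of these enzymes were lower in WT_IR kidney than in WT kidney across the whole list, and in KO_IR kidney none passed the test against KO kidney. All 43 tested genes fell in WT_IR relative to WT, where 23.2% of all genes tested fell. Because the list was chosen with earlier results of these data known, its counts beside all genes describe the list only. The median log2 change of the 43 was -1.57, against -0.02 over all 15607 genes tested. None of the 43 passed the test in KO_IR relative to KO, with a median log2 change of -0.27. There 1.03% of all genes passed in either direction, 148 higher and 12 lower. At an unadjusted p under 0.05 in limma were 13 of the 43, all lower in KO_IR, against 12.8% of all genes. In 29 of the 43 both KO_IR libraries lay below both KO libraries, against 23.2% of all genes. A lack of calls there does not show a lack of change. In KO_IR relative to WT_IR 42 of the 43 were higher (16.6% of all genes), with a median log2 change of 1.32. In KO relative to WT none of the 43 passed, with a median of 0.03, and 0.218% of all genes did. At an unadjusted p under 0.05 in limma were 7 of the 43, against 11.9% of all genes. The response to IR itself differed between the genotypes for 38 of the 43, in each case upward in KO, against 9.62% of all genes. The counts of 43, 42 and 38 all rest on the same 2 WT_IR libraries, so they are not independent results. The comparisons without those libraries, KO_IR with KO and KO with WT, called none of the 43. Changes are on the log2(FPKM + 1) scale with their standard error (SE), and p-values are from limma, adjusted over all genes tested.

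The summed level of the 44 genes was 3979 and 3216 FPKM in KO_IR, 1231 and 1073 in WT_IR, 4455 and 4092 in KO, and 4158 and 3839 in WT. Both WT_IR libraries stood far below the other 6, and the KO_IR libraries overlapped neither KO nor WT_IR. The KO_IR mean was thus 84.2% of the KO mean, and in WT_IR it was 28.8% of WT. For single genes the KO_IR level as a share of KO ran between 54.7% (Hpd) and 115% (Acmsd), with a median of 81.9%, and 37 of the 43 were at 75% or more. The WT_IR level as a share of WT ran between 7.12% (Inmt) and 75.8% (Oat), with a median of 32.8%, and 40 of the 43 were under 50%. In all 43 both WT_IR libraries lay below both WT libraries, which 38.2% of all genes tested showed, and in 42 they lay below all other 6 libraries, the exception being Ddc.

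**Figure D1:**
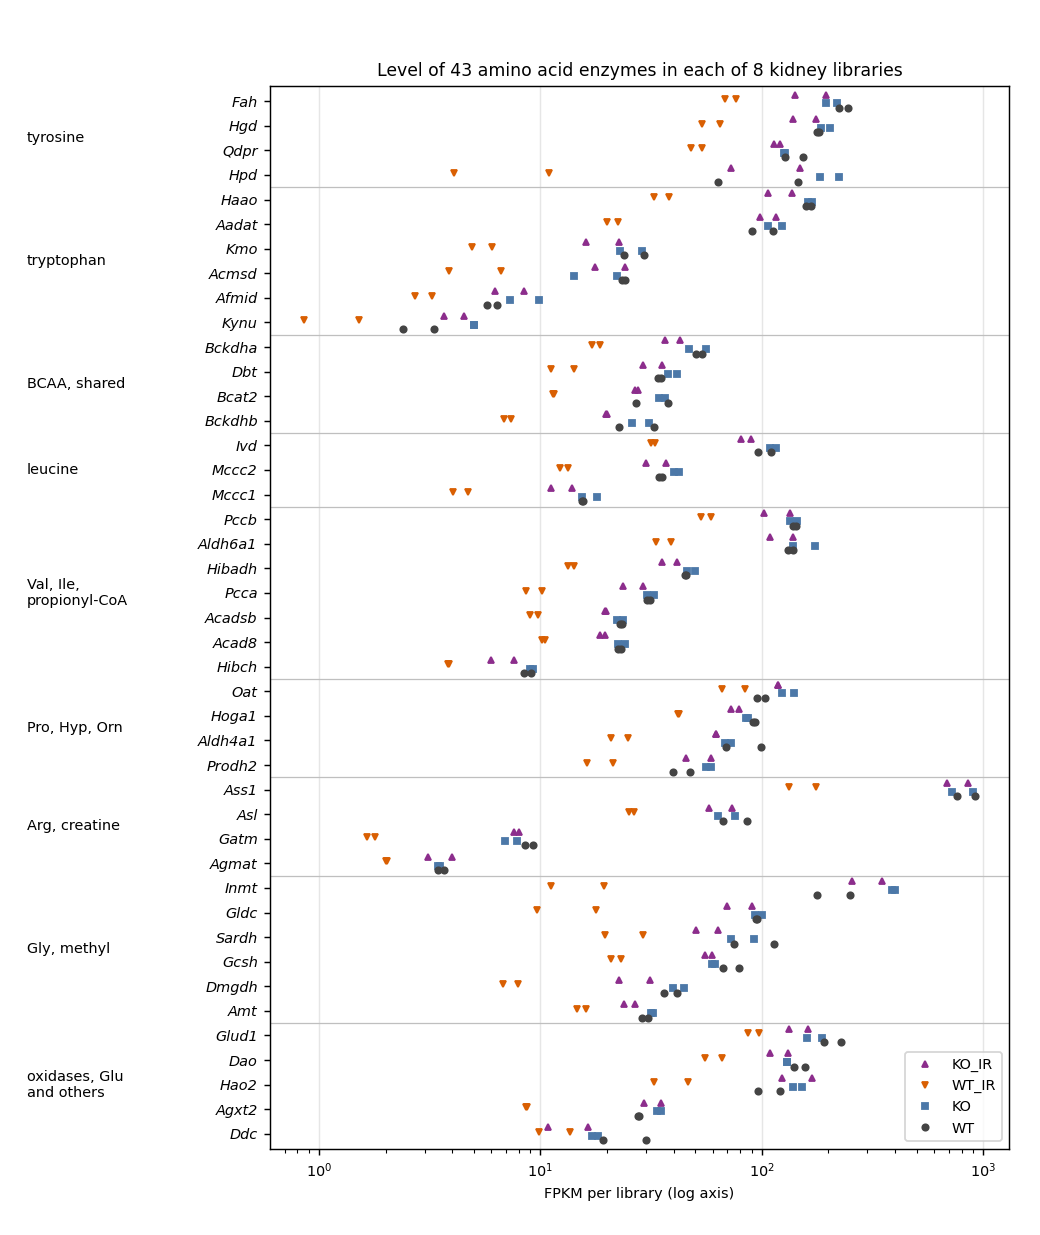
Level of each of the 43 tested enzyme genes in each of the 8 libraries, in FPKM on a log axis, with genes grouped by pathway down the page and 1 point per library marked by group. The WT_IR points form the left edge of every row except that of Ddc, and most KO_IR points lie among or just left of the KO and WT points.

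Gene-wise, the enzymes of one route moved by different amounts, and neither expression level nor gene length ordered them closely. Across the 43 genes Spearman's rho between the log2 WT mean and the change in WT_IR was -0.40, and rho between gene length and that change was 0.12. The rho between the change in WT and the change in KO was 0.26. These describe genes that share the same 8 libraries and are not replicates.

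Promoter windows, 250 bases before to 50 bases after the start site, were found for 41 of the 44 genes in RefSeq (assembly GRCm38.p6). Short motifs of factors that act in proximal tubule, chosen with earlier results of these data known, were looked for on both strands. For each of the 4 genes with a longer motif 1 window is shown. The second window of Agxt2, not shown, also holds its longer motif. In the windows shown capitals mark the matches, a match on the minus strand being shown by its reverse complement. All other bases are in lower case. The windows are chr8:60505874-60506173 on the plus strand for Aadat, chr15:10358283-10358582 on the plus strand for Agxt2 (the first of its 2 listed start sites), chr19:42045620-42045919 on the plus strand for Hoga1 and chr7:30493408-30493707 on the plus strand for Prodh2.
Aadat: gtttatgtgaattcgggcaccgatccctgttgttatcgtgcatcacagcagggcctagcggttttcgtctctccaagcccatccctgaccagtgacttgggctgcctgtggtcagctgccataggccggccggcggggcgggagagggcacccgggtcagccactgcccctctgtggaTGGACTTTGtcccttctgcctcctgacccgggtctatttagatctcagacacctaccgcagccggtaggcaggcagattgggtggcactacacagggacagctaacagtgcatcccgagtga
Agxt2: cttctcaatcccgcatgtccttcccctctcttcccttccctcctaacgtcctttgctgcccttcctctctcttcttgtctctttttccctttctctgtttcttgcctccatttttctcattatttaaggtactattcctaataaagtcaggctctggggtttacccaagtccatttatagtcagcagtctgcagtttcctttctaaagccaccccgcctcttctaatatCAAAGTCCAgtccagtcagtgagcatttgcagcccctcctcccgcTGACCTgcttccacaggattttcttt
Hoga1: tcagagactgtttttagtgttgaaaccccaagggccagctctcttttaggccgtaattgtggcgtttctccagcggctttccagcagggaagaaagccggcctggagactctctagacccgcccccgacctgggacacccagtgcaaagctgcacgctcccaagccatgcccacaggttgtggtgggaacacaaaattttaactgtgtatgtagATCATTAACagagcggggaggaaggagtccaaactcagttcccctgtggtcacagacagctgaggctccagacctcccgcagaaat
Prodh2: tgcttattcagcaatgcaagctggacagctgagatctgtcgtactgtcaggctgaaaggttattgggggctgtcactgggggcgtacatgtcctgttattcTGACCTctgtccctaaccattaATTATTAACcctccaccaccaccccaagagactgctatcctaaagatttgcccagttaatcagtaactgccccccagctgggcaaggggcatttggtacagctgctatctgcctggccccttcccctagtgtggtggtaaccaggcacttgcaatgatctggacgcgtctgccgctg
The motif CAAAGTCCA, bound by HNF4 factors, was present in Aadat and Agxt2, 4.88% of the 41 genes against 0.555% of the 27025 genes with a window. The motif GTTAATNAT, part of the HNF1 site, was present in Hoga1 and Prodh2, also 4.88% against 0.940%. The half-site AGGTCA of nuclear receptors was present in 14 of the 41, or 34.1% against 18.1% of all genes, and no match overlapped another in the windows shown. The median GC content was 58.5% in the windows of the enzymes and 52.7% in all windows, and its part in these shares was not tested. A match of letters describes the sequence and does not show that a factor binds. Whether genes with a motif changed differently from the others was not tested.

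Tyrosine is broken down by Hpd (4-hydroxyphenylpyruvate dioxygenase), Hgd (homogentisate dioxygenase) and Fah (fumarylacetoacetase, the last step), while Qdpr recycles tetrahydrobiopterin, a cofactor of amino acid hydroxylation. All 4 fell in WT_IR, and none passed in KO_IR relative to KO. Hpd (chr5:123171807-123182727, GRCm38) had 149 and 72.8 FPKM in KO_IR, 4.09 and 11.0 in WT_IR, 223 and 183 in KO, and 63.5 and 146 in WT. Its WT_IR libraries lay far below the others, and the libraries within WT and within KO_IR were spread widely. The change in WT_IR was -3.64 ± 0.54 (limma adjusted p = 0.00172), or 7.20% of the WT mean. Leaving out single WT or WT_IR libraries moved it to between -4.26 and -3.02, the extremes being without WT_IR replicate 2 and without WT_IR replicate 1, with -4.23 without WT replicate 1 and -3.05 without WT replicate 2. Fah had 195 and 142 FPKM in KO_IR, 76.2 and 67.9 in WT_IR, 218 and 195 in KO, and 244 and 223 in WT. Its WT_IR libraries were the lowest pair, and its higher KO_IR library was level with the lower KO library. Fah changed by -1.68 ± 0.16 in WT_IR (limma adjusted p = 0.000255) and by -0.31 ± 0.16 in KO_IR (limma adjusted p = 0.497). Hgd and Qdpr stood at 80.7% and 92.3% of their KO means in KO_IR, and at 32.8% and 36.1% of their WT means in WT_IR.

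For tryptophan breakdown through kynurenine the summed level in KO_IR was 83.1% of KO, and in WT_IR it was 22.2% of WT. Its 6 genes all fell in WT_IR, with a median log2 change of -2.05, and none passed in KO_IR. Aadat, a transaminase that makes kynurenic acid, had 116 and 98.2 FPKM in KO_IR, 20.1 and 22.4 in WT_IR, 107 and 123 in KO, and 89.9 and 112 in WT. The KO_IR libraries overlapped those of KO and WT, and only the WT_IR libraries stood apart. Aadat changed by -2.19 ± 0.14 in WT_IR (limma adjusted p = 8.35e-05) and by -0.10 ± 0.14 in KO_IR (limma adjusted p = 0.833). Haao, the 3-hydroxyanthranilate dioxygenase that leads to quinolinate and NAD, had 137 and 107 FPKM in KO_IR, 38.3 and 32.5 in WT_IR, 168 and 162 in KO, and 158 and 166 in WT. Its KO_IR libraries were below all KO and WT libraries and far above WT_IR. Haao changed by -2.17 ± 0.14 in WT_IR (limma adjusted p = 7.26e-05). Kmo, the kynurenine 3-monooxygenase, had 22.6 and 16.2 FPKM in KO_IR, 6.08 and 4.92 in WT_IR, 28.6 and 22.9 in KO, and 23.8 and 29.5 in WT. Its KO_IR libraries were likewise below all KO and WT libraries, and WT_IR was at 20.7% of the WT mean. Acmsd, the decarboxylase that turns the pathway away from NAD, had 17.7 and 24.2 FPKM in KO_IR, 6.63 and 3.86 in WT_IR, 14.3 and 22.3 in KO, and 24.0 and 23.4 in WT. Its KO_IR libraries overlapped KO and WT, and its KO libraries were both below WT without passing the test (log2 change -0.39 ± 0.27, limma adjusted p = 0.633). Afmid, which frees kynurenine from formylkynurenine, and Kynu, the kynureninase, were the least abundant of the route, at 0.856 to 9.84 FPKM over both genes. They fell by less than the other 4, with log2 changes of -0.83 ± 0.17 and -0.82 ± 0.18. Their calls ended without WT_IR replicate 2 (limma adjusted p = 0.0512 for Afmid, 0.0606 for Kynu at most over the libraries left out), and that of Kynu also without WT replicate 1.

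The branched-chain amino acids leucine, valine and isoleucine share a transaminase, Bcat2 in mitochondria, and the branched-chain ketoacid dehydrogenase built by Bckdha and Bckdhb (the E1 subunits) and Dbt (the E2 subunit). All 14 genes of these routes fell in WT_IR, with log2 changes of -1.87 to -1.0 and WT_IR means of 25.7% to 45.6% of WT. They covered a narrower range than the other 29 genes, which ran between -3.75 and -0.40. In KO_IR none of the 14 passed the test, with log2 changes of -0.49 to -0.21, adjusted p-values of 0.141 to 0.528 in limma, and KO_IR means of 70.1% to 85.9% of KO. At an unadjusted p under 0.05 there were 10 of these 14, against 3 of the other 29 and 12.8% of all genes tested. Both KO_IR libraries lay below both KO libraries in 29 of the 43 genes, a pattern that 23.2% of all genes tested showed.

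Bckdha had 42.9 and 36.4 FPKM in KO_IR, 18.7 and 17.1 in WT_IR, 56.1 and 47.1 in KO, and 53.7 and 50.6 in WT. Its KO_IR libraries lay between WT_IR and KO, with no overlap among these 3 groups. Its change was -1.49 ± 0.12 in WT_IR (limma adjusted p = 0.000152) and -0.37 ± 0.12 in KO_IR (limma adjusted p = 0.25). Of its exon bases, 61.7% lie under B3gnt8 on the other strand, which was at 0.915 to 1.29 FPKM, and whether the counting used strand is not given in the sources used here. Bckdhb had 19.9 and 20.0 FPKM in KO_IR, 6.86 and 7.36 in WT_IR, 26.0 and 30.8 in KO, and 32.5 and 22.7 in WT. It showed the same order, with KO_IR at 70.1% of KO and WT_IR at 25.7% of WT, and both KO_IR libraries were nearly equal. Dbt and Bcat2 changed by -1.38 and -1.39 in WT_IR, and 15.9% of the exon bases of Bcat2 lie under 0610005C13Rik on the other strand, at 9.73 to 45.7 FPKM. Afmid, Aldh4a1, Aldh6a1 and Qdpr each share between 18.6% and 44.2% of their exon bases with 1 other annotated gene, at no more than 0.881 FPKM. Afmid also shares 2.35% with Tk1 on the other strand, at 2.44 to 5.52 FPKM. The overlaps of 44.2% in Afmid and 32.5% in Aldh4a1 are on the same strand. How shared fragments were counted is not given in the sources used here.

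Leucine then passes through Ivd (isovaleryl-CoA dehydrogenase) and the methylcrotonyl-CoA carboxylase of Mccc1 and Mccc2. Ivd had 89.3 and 80.2 FPKM in KO_IR, 33.1 and 31.6 in WT_IR, 116 and 109 in KO, and 110.3 and 96.5 in WT. WT_IR lay lowest and both KO_IR libraries lay below the KO and WT pairs. The change in WT_IR was -1.64 ± 0.10 (limma adjusted p = 6.76e-05) and that in KO_IR was -0.40 ± 0.10, with the lowest adjusted p of the 43 genes in KO (0.141). Mccc1 had 13.9 and 11.2 FPKM in KO_IR, 4.73 and 4.05 in WT_IR, 17.9 and 15.4 in KO, and 15.4 and 15.5 in WT. WT_IR was at 28.4% of the WT mean, and its partner subunit Mccc2 was at 36.7%.

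Valine passes through Acad8, Hibch, Hibadh and Aldh6a1, isoleucine through Acadsb, and both end in propionyl-CoA, which the carboxylase of Pcca and Pccb takes on. Aldh6a1, the methylmalonate semialdehyde dehydrogenase, had 138 and 109 FPKM in KO_IR, 39.1 and 33.4 in WT_IR, 175 and 139 in KO, and 131 and 139 in WT. The KO_IR libraries were both below KO, the higher of them level with WT, and WT_IR stood at 26.8% of the WT mean (log2 change -1.87 ± 0.16, limma adjusted p = 0.000172). Hibadh, the 3-hydroxyisobutyrate dehydrogenase, had 41.6 and 35.3 FPKM in KO_IR, 14.2 and 13.3 in WT_IR, 49.8 and 46.0 in KO, and 45.4 and 45.0 in WT. Its replicates were close to each other in every group, and its change in WT_IR was -1.65 ± 0.10 (limma adjusted p = 6.57e-05). Pccb, the beta subunit of propionyl-CoA carboxylase, had 134 and 103 FPKM in KO_IR, 58.7 and 53.3 in WT_IR, 145 and 134 in KO, and 143 and 138 in WT. The higher KO_IR library was level with the lower KO library, and WT_IR lay below all others. Pccb changed by -1.31 ± 0.13 and its partner subunit Pcca by -1.61 ± 0.12, while Acad8, Acadsb and Hibch changed by -1.06, -1.22 and -1.0 in WT_IR.

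**Figure D2:**
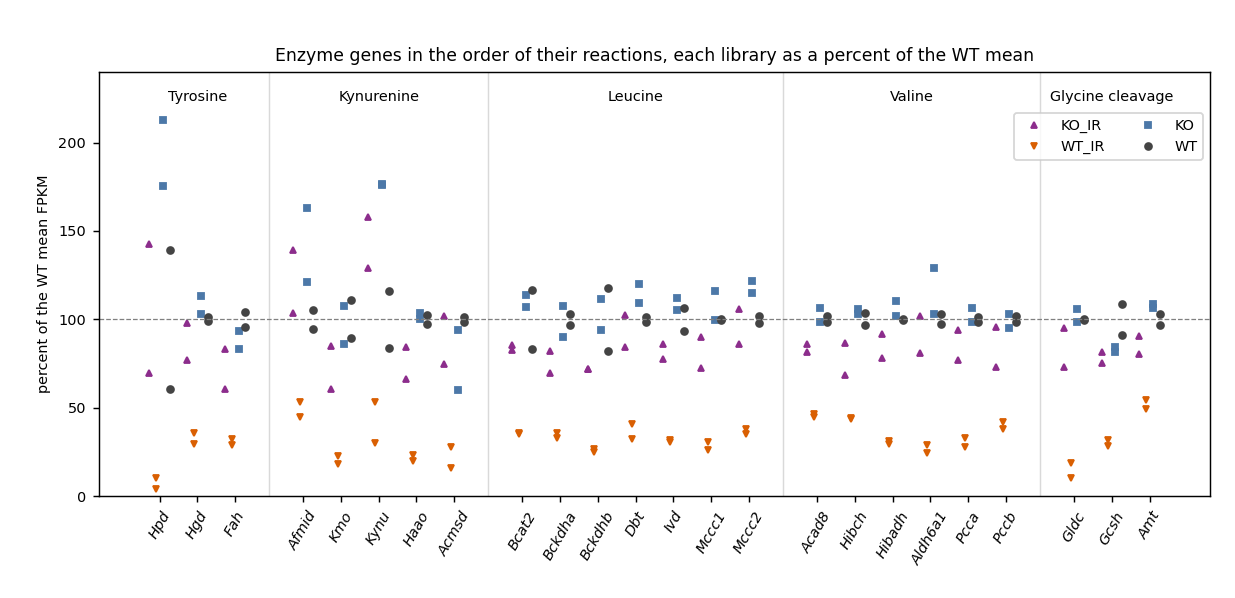
Enzyme genes in the order of their reactions along each route, each library given as a percent of the mean of the 2 WT libraries, with 1 point per library and colours for the 4 groups. The WT_IR points lie lowest at every step shown, with means between 7.20% of WT for Hpd and 51.9% for Amt. KO_IR points are higher, between those of WT_IR and KO at most steps.

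Proline, hydroxyproline and ornithine feed into pyrroline-5-carboxylate and related intermediates. Prodh, which opens proline breakdown, held 0 or 1 fragment in each library and 2 in total, or 0 to 0.0185 FPKM, below the 0.0427 to 0.0594 FPKM that 3 fragments correspond to there, so no comparison was made. Prodh2, the hydroxyproline dehydrogenase, had 58.9 and 45.3 FPKM in KO_IR, 21.3 and 16.3 in WT_IR, 58.8 and 55.8 in KO, and 47.6 and 39.8 in WT. WT_IR lay below the rest and KO_IR overlapped KO, with a change of -1.18 ± 0.17 in WT_IR (limma adjusted p = 0.00147). Aldh4a1, the dehydrogenase on which both proline and hydroxyproline breakdown converge, had 62.3 and 62.0 FPKM in KO_IR, 24.9 and 20.8 in WT_IR, 68.5 and 72.8 in KO, and 98.8 and 69.2 in WT. The higher WT library stood apart from the lower, which was within the KO range, and WT_IR was at 27.2% of the WT mean (limma adjusted p = 0.000233). Hoga1, the aldolase that ends hydroxyproline breakdown and yields glyoxylate, fell by 1.12 ± 0.077 on the log2 scale in WT_IR (limma adjusted p = 9.79e-05). Oat, ornithine aminotransferase, had 119 and 118 FPKM in KO_IR, 84.0 and 66.1 in WT_IR, 124 and 139 in KO, and 103 and 95.2 in WT. Its WT_IR libraries were below all others, but they were closer to WT, as a share of it, than those of any other of the 43 genes. The change of Oat in WT_IR was -0.40 ± 0.13 (limma adjusted p = 0.0393), and leaving out any library except WT_IR replicate 1 ended the call. Its size stayed at -0.40 without a KO or KO_IR library, and ran between -0.57 and -0.23 over all libraries left out. With values rescaled to an equal sum in each library (TPM) the change of Oat turned to 0.10 (limma adjusted p = 0.522).

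Arginine is made in the proximal tubule by Ass1 and Asl, argininosuccinate synthase and lyase. The summed level of Ass1, Asl, Gatm and Agmat in KO_IR was 94.7% of KO, and in WT_IR it was 19.8% of WT. Ass1 (chr2:31470207-31520672, GRCm38), the most abundant gene of the 44 in WT kidney, had 856 and 683 FPKM in KO_IR, 176 and 133 in WT_IR, 904 and 723 in KO, and 920.3 and 759.9 in WT. WT_IR stood alone at the bottom and KO_IR overlapped KO and WT. Ass1 changed by -2.44 ± 0.20 in WT_IR (limma adjusted p = 0.000165) and by -0.08 ± 0.20 in KO_IR (limma adjusted p = 0.921). Gatm, the glycine amidinotransferase that opens creatine synthesis, had 8.04 and 7.64 FPKM in KO_IR, 1.79 and 1.66 in WT_IR, 6.95 and 7.83 in KO, and 9.29 and 8.49 in WT. Its KO_IR libraries overlapped KO, and it had the smallest adjusted p of the 43 genes in WT_IR (log2 change -1.86 ± 0.10, limma adjusted p = 5.08e-05). With a pseudocount of 5 FPKM in place of 1 its change was -1.05. Asl and Agmat, annotated as agmatinase, changed by -1.52 ± 0.16 and -0.60 ± 0.12 in WT_IR, and the call of Agmat ended on the TPM scale (-0.27, limma adjusted p = 0.194).

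Glycine is cleaved in mitochondria by Gldc, Amt and Gcsh, which hand a single-carbon unit to folate, while Dmgdh and Sardh demethylate dimethylglycine and sarcosine. Inmt (indolethylamine N-methyltransferase) transfers methyl groups from S-adenosylmethionine to small amines. The summed level of these 6 genes in KO_IR was 77.4% of KO, and in WT_IR it was 18% of WT, the lowest of the 9 sets. Inmt (chr6:55170626-55175043, GRCm38) had 348 and 255 FPKM in KO_IR, 19.4 and 11.2 in WT_IR, 401 and 386 in KO, and 251 and 178 in WT. Its WT_IR libraries were far below the other 6, and its KO libraries were both above WT. Inmt changed by -3.75 ± 0.28 in WT_IR (limma adjusted p = 0.000114), the largest fall of the 43, and by 0.89 ± 0.28 in KO relative to WT, which did not pass (limma adjusted p = 0.29). Gldc, the glycine decarboxylase, had 90.3 and 69.4 FPKM in KO_IR, 17.9 and 9.62 in WT_IR, 101 and 93.6 in KO, and 95.1 and 94.6 in WT. KO_IR lay just below KO and WT, and WT_IR far below, with a change of -2.76 ± 0.25 (limma adjusted p = 0.000236). Dmgdh had 31.4 and 22.7 FPKM in KO_IR, 7.91 and 6.79 in WT_IR, 44.7 and 39.8 in KO, and 41.6 and 36.2 in WT. It fell in WT_IR by 2.26 ± 0.16 on the log2 scale (limma adjusted p = 0.000107), and its change in KO_IR was -0.64 ± 0.16 (limma adjusted p = 0.151), with both KO_IR libraries under both KO libraries. Gcsh, Sardh and Amt changed by -1.68, -1.90 and -0.90 in WT_IR.

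The last set joins oxidases, a transaminase, a decarboxylase and glutamate dehydrogenase. Hao2, a peroxisomal 2-hydroxyacid oxidase, had 168 and 123 FPKM in KO_IR, 46.6 and 32.6 in WT_IR, 152 and 139 in KO, and 121 and 95.7 in WT. KO_IR overlapped KO and lay above WT, and WT_IR lay below all others, with a change of -1.44 ± 0.22 (limma adjusted p = 0.00174). Agxt2, the mitochondrial aminotransferase that breaks down asymmetric dimethylarginine, had 35.0 and 29.4 FPKM in KO_IR, 8.73 and 8.61 in WT_IR, 35.0 and 33.8 in KO, and 27.9 and 27.6 in WT. The KO_IR and KO libraries were all above WT, and WT_IR was at 31.2% of the WT mean (limma adjusted p = 6.57e-05). Glud1, glutamate dehydrogenase, which releases ammonium, had 162 and 133 FPKM in KO_IR, 86.9 and 97.0 in WT_IR, 187 and 161 in KO, and 190.1 and 228 in WT. Its WT libraries were the highest pair, and WT_IR was at 43.9% of WT (limma adjusted p = 0.000785). Dao, the D-amino acid oxidase, changed by -1.27 ± 0.13 in WT_IR. Ddc, the decarboxylase that makes dopamine in tubule cells, changed by -1.0 ± 0.26 (limma adjusted p = 0.0189), and without WT_IR replicate 1 or WT replicate 2 its call ended (adjusted p up to 0.112).

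Comparing the knockout with wild type after injury, 42 of the 43 genes were higher in KO_IR than in WT_IR, with changes up to 4.24 ± 0.28 for Inmt (limma adjusted p = 0.00034). For all 42 both KO_IR libraries lay above both WT_IR libraries, a separation that 33.5% of all genes tested showed upward. The next largest were Hpd at 3.75 ± 0.54, Gldc at 2.50 ± 0.25, Ass1 at 2.32 ± 0.20 and Aadat at 2.28 ± 0.14. The change of Hpd was 3.14 without WT_IR replicate 1 and 4.37 without WT_IR replicate 2. Ddc was the gene that did not pass (0.19 ± 0.26, limma adjusted p = 0.625), with 16.4 and 10.8 FPKM in KO_IR and 9.82 and 13.6 in WT_IR. Its sign turned without KO_IR replicate 1 (-0.09), without WT_IR replicate 1 (-0.02) and on the TPM scale (-0.15). The calls of Agmat, Glud1 and Sardh ended with some single libraries left out. Agmat was at 0.58 without WT_IR replicate 1 and 0.59 without WT_IR replicate 2, against 0.59 in the full fit. Glud1 was at 0.53 without KO_IR replicate 1 and 0.59 without WT_IR replicate 1, against 0.67. Sardh was at 1.05 without KO_IR replicate 2 and 0.94 without WT_IR replicate 2, against 1.21. A fit without a library also has fewer residual degrees of freedom than the full fit.

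Without injury no enzyme gene passed the test between the genotypes. The changes in KO relative to WT lay between -0.43 ± 0.26 for Ddc and 1.06 ± 0.54 for Hpd, and the smallest adjusted p was 0.248 in limma. In 13 genes both KO libraries were above both WT libraries and in 9 both were below, of the 43, where 21.2% and 21.8% of all genes tested showed these. The largest log2 changes among those above were 1.06 for Hpd, 0.89 for Inmt and 0.66 for Kynu. Hao2, Afmid, Oat and Prodh2 followed at 0.43, 0.43, 0.41 and 0.39. Among those below, the largest were -0.43 for Ddc, -0.39 for Acmsd, -0.26 for Glud1, -0.26 for Gcsh and -0.24 for Gatm. None of these passed.

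**Figure D3:**
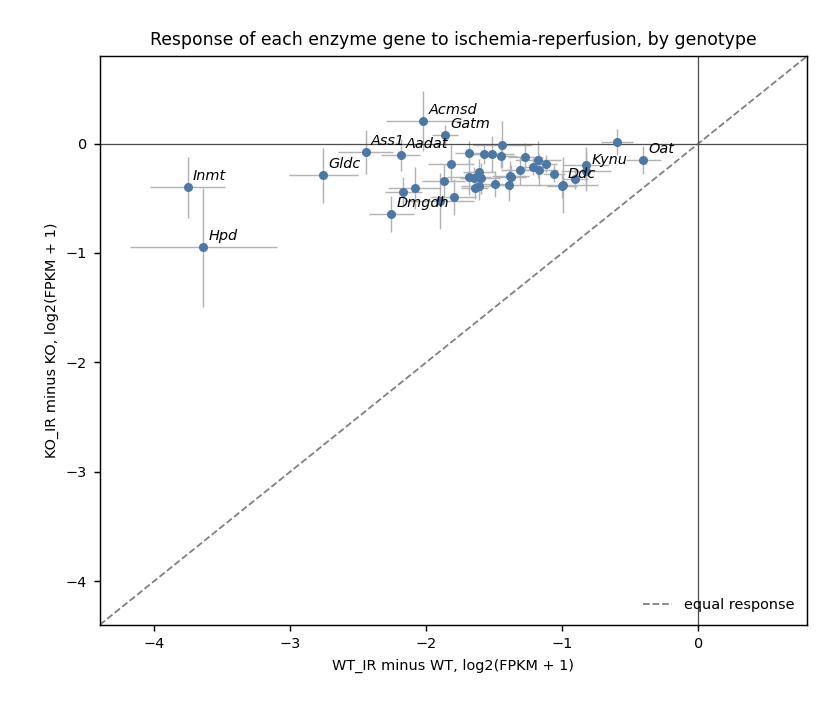
Log2 change in WT_IR minus WT (x axis) against KO_IR minus KO (y axis) on the log2(FPKM + 1) scale, 1 point per tested enzyme gene with bars for the SE, and a dashed line of equal response. The points spread between -3.75 and -0.40 along the x axis and between -0.95 and 0.20 along the y axis, and all lie above the dashed line.

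The difference between the responses was tested directly, as the change in KO_IR minus KO less the change in WT_IR minus WT. It was positive in all 43 genes and passed in 38, with a median of 1.31. Among those that passed the largest values were 3.35 ± 0.39 for Inmt (limma adjusted p = 0.00448), 2.47 ± 0.36 for Gldc (0.00735), 2.36 ± 0.28 for Ass1 (0.00475), 2.23 ± 0.39 for Acmsd (0.0115) and 2.08 ± 0.20 for Aadat (0.00367). The smallest adjusted p belonged to Gatm, at 1.94 ± 0.13 (limma adjusted p = 0.00276), with a value of 1.10 at a pseudocount of 5 FPKM. Genes that did not pass were Hpd (2.69 ± 0.77, limma adjusted p = 0.056), Afmid (0.63 ± 0.24, 0.133), Kynu (0.58 ± 0.26, 0.185), Ddc (0.62 ± 0.37, 0.305) and Oat (0.26 ± 0.18, 0.39). The value of Hpd was 2.07 without WT_IR replicate 1, 3.31 without WT_IR replicate 2, 3.28 without WT replicate 1 and 2.10 without WT replicate 2. All 14 branched-chain genes and all 6 of the glycine and methyl set passed.

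With each library left out in turn, 29 of these 38 calls held every time. Pccb lost its call without WT_IR replicate 2 (limma adjusted p = 0.0524). Bcat2 lost it without KO_IR replicate 1, either WT_IR library or KO replicate 2, with adjusted p up to 0.0652. Glud1 lost it without KO_IR replicate 1, either WT_IR library, KO replicate 2 or WT replicate 2 (up to 0.0908). Hao2 and Prodh2 lost it without KO_IR replicate 1, WT_IR replicate 2, either KO library or WT replicate 1 (up to 0.0751 and 0.0936). Sardh lost it in 6 of the 8 fits, all but those without WT_IR replicate 1 or WT replicate 2 (up to 0.122). Amt and Hibch kept it in 1 of the 8, without KO_IR replicate 2 (up to 0.0851 and 0.116), and Agmat in 1, without KO_IR replicate 1 (up to 0.125). Hpd gained a call without KO_IR replicate 2 (0.0473).

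**Figure D4:**
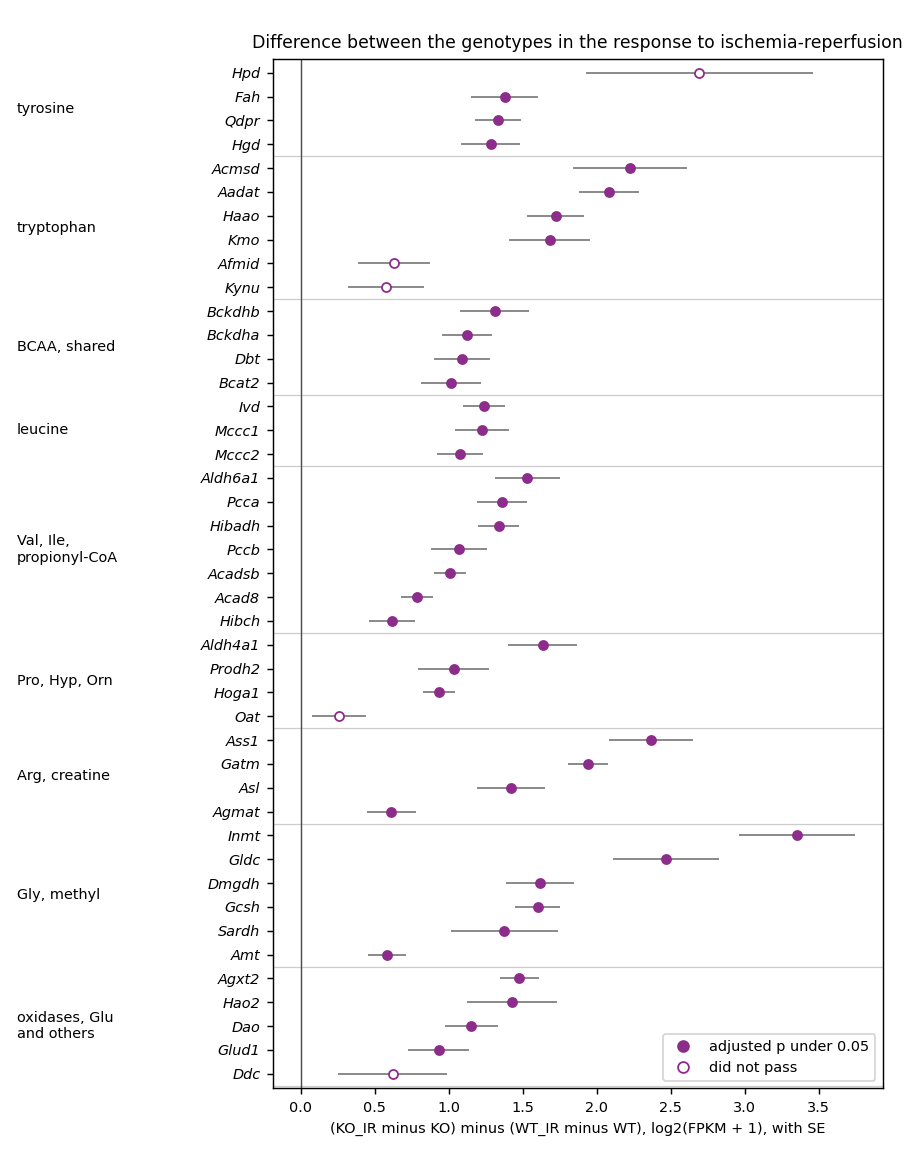
Difference between genotypes in the response to IR for each of the 43 tested enzyme genes, on the log2(FPKM + 1) scale, with bars for the SE of the fit, ordered by size within each pathway, and filled where limma's adjusted p was under 0.05 (open where it was not). All points lie right of 0, between 0.26 for Oat and 3.35 for Inmt, and the bar of Hpd is the widest.

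Beyond the 44, 104 further genes of amino acid, folate and methyl metabolism were listed, of which 88 were tested. In WT_IR 63 of them fell and 9 rose (23.2% and 19.1% of all genes tested), with a median log2 change of -0.93. In KO_IR relative to KO none passed. There 24 of the 88 were at an unadjusted p under 0.05 in limma, against 12.8% of all genes. The interaction passed upward in 48 and, with 6.68% of all genes tested, downward in Nnmt, Arg2, Asns and Mthfd2. Falls covered lysine breakdown (6 of 6, Gcdh, glutaryl-CoA dehydrogenase, at -1.85), cysteine, taurine and sulfide metabolism (9 of 9, Suox, sulfite oxidase, at -1.72), tryptophan and NAD (6 of 6) and further branched-chain genes (13 of 15, Abat at -1.90). In the methionine cycle and methyl transfer list 8 of 15 fell and 1 rose. Ahcy, which clears S-adenosylhomocysteine, changed by -1.93 ± 0.16, while Nnmt, which methylates nicotinamide, changed by 2.28 ± 0.14 (limma adjusted p = 6.57e-05). Nnmt had 1.46 and 1.14 FPKM in KO_IR, 4.12 and 4.37 in WT_IR, 0.435 and 0.673 in KO, and 0.0392 and 0.123 in WT. Its WT_IR libraries were the highest pair, and its interaction was -1.71 ± 0.19 (limma adjusted p = 0.00418).

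The other 8 rises in WT_IR were spread over several lists. Of 6 tested synthesis genes 3 rose and 1 fell, with Asns, asparagine synthetase, at 1.46 ± 0.13 and Aldh18a1, which makes pyrroline-5-carboxylate for proline, at 1.12 ± 0.18, while Psat1 fell (-1.12 ± 0.21). Arg2, the mitochondrial arginase, rose by 1.55 and Ddah2 by 0.74, whereas Ddah1, the other dimethylarginine hydrolase, fell by 1.19 on the log2 scale. In the folate and serine list 7 of 11 fell and 2 rose, and in the tyrosine list Gch1, which opens tetrahydrobiopterin synthesis, rose (1.0). Mthfd2 and Mthfd1l, the mitochondrial folate enzymes that rose (1.0 and 0.77), Phgdh (0.79) and Gch1 were named after their values were seen.

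Of 10 listed transcription regulators, 7 fell in WT_IR (23.2% of all genes tested), among them Hnf4a (-1.28 ± 0.10, limma adjusted p = 0.000142), Esrra (-1.18 ± 0.13) and Nr1h4 (-0.93 ± 0.11), and Cebpb rose (1.04 ± 0.14). None passed in KO_IR, where Hnf4a changed by -0.25 ± 0.10 (limma adjusted p = 0.355). The interaction passed upward in 5 of the 10 (9.62% of all genes tested) and downward in Cebpb.

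Proximal tubule markers fell with the enzymes in WT_IR, while macrophage, fibroblast and tubular injury markers rose. All 17 tested of 18 proximal tubule markers fell in WT_IR (median -2.09) and none passed in KO_IR, and their summed level was 6118 and 5487 FPKM in KO_IR, 1509 and 1259 in WT_IR, 6735 and 6607 in KO, and 6530 and 6657 in WT. The summed enzymes divided by this proximal tubule sum gave 0.650 and 0.586 in KO_IR, 0.816 and 0.852 in WT_IR, 0.662 and 0.619 in KO, and 0.637 and 0.577 in WT. Per unit of proximal tubule marker RNA, the summed enzymes were thus higher in both WT_IR libraries than in any other. This holds for the sum only. Some single enzymes, Inmt and Ass1 among them, fell further in WT_IR than the marker sum, and most fell less. Cell number and RNA per cell were not separated. All 9 macrophage markers rose in WT_IR and 6 of the 9 in KO_IR, where 0.948% of all genes rose, with sums of 176 to 181 FPKM in KO_IR, 421 to 442 in WT_IR, 60.9 to 81.7 in KO and 46.6 to 52.7 in WT. All 6 tubular injury genes rose in WT_IR and 3 in KO_IR, with sums of 57.5 to 78.5 FPKM in KO_IR, 600 to 614 in WT_IR, 3.4 to 15.7 in KO and 4.75 to 5.01 in WT. Of 6 fibroblast markers 3 rose in KO_IR relative to KO and 6 in WT_IR relative to WT. The calls of these markers in KO_IR were unsteady, and ended without KO_IR replicate 1 or without either WT_IR library. A WT_IR library enters that comparison only through the shared estimate of the spread, so its loss left the changes themselves as they were. Markers of other nephron segments were lower in WT_IR too. All 5 distal convoluted tubule markers fell in WT_IR and 1 in KO_IR, with sums of 207 to 301 FPKM in KO_IR, 68.5 to 73.3 in WT_IR, 329 to 336 in KO and 352 to 353 in WT. In WT_IR 5 of 6 intercalated cell, 5 of 6 thick ascending limb and 2 of 4 tested principal cell markers fell, and in KO_IR none of these passed. Thick ascending limb sums were 1575 to 2065 FPKM in KO_IR, 1034 to 1209 in WT_IR, 2018 to 2569 in KO and 1819 to 2131 in WT. Intercalated cell sums were 136 to 139 FPKM in KO_IR, 61.6 to 67.9 in WT_IR, 147 to 165 in KO and 167 to 183 in WT. All 4 tested T and NK cell markers and 3 of 4 neutrophil markers rose in WT_IR and none in KO_IR, with T and NK sums of 5.41 to 9.81 FPKM in KO_IR, 19.7 to 28.4 in WT_IR, 1.63 to 4.40 in KO and 1.65 to 2.81 in WT. All marker counts in WT_IR given here stand beside 23.2% of all genes tested that fell and 19.1% that rose. In WT_IR relative to WT 4 of 8 endothelial markers rose and 1 fell. Of 7 podocyte markers 3 fell and 1 rose, and 4 of 5 red blood cell markers fell. The part of these cells in the enzyme changes was not tested. Liver expresses many of the same enzymes, and of 12 hepatocyte markers Alb was at 0.04 to 3.72 FPKM, Ahsg and Cyp3a11 were at 0.12 FPKM or less, and Cyp2e1 was at 194 to 942 FPKM. Of the 9 tested, 7 fell in WT_IR, and Fga and Fgb rose. Fga was at 27.8 and 14.4 FPKM in KO_IR, 118 and 166 in WT_IR, 12.7 and 11.5 in KO, and 17.2 and 68.6 in WT. Serpina1a was at 17.9 to 51.9 FPKM, Apoc3 at 12.3 to 32.1, Apob at 7.18 to 18.4, Apoa2 at 3.37 to 14.0, Apoa1 at 0.622 to 2.09 and Hpx at 0.0427 to 0.528. The summed level of the 12 was 451 to 933 FPKM in KO_IR, 425 to 429 in WT_IR, 551 to 931 in KO and 953 to 1044 in WT.

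**Figure D5:**
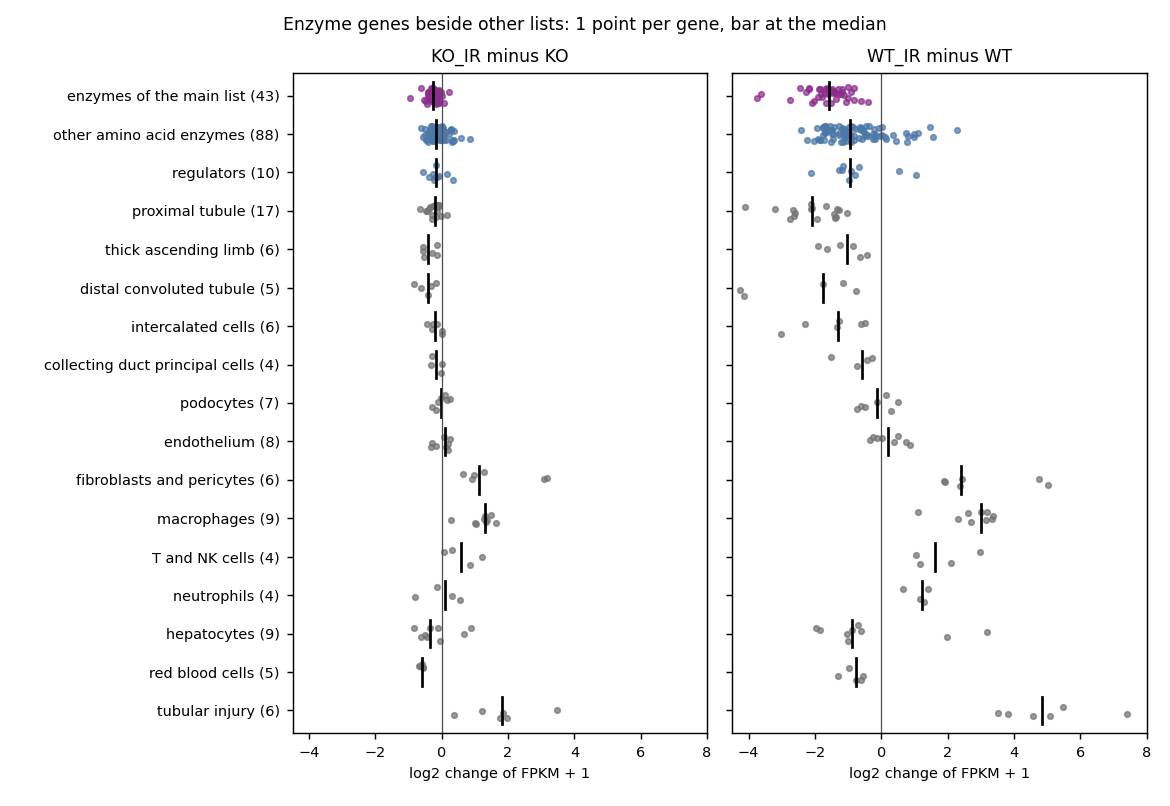
Log2 change of FPKM + 1 in KO_IR minus KO (left) and WT_IR minus WT (right) for the enzymes of the main list and for other gene lists, 1 point per tested gene with a bar at the median. In KO_IR the enzyme median is -0.27 and most lists lie near 0. In WT_IR the enzymes (median -1.57) and proximal tubule markers (median -2.09) lie low, and macrophage (median 3.02) and injury genes (median 4.84) lie high.

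The level of all genes in WT_IR depends on scaling. Rescaled to TPM, the median of all genes moved up by 0.45 on the log2 scale in WT_IR relative to WT, and the split over all genes tested became 7486 higher and 1554 lower (48.0% and 9.96%), against 2980 and 3616 on the FPKM scale. The 43 enzymes then had a median of -1.10, or -1.53 relative to all genes, against -1.55 relative to all genes on the FPKM scale, and 39 of them passed, all downward. In KO_IR relative to WT_IR the shift of all genes was -0.33 and 39 of the 43 passed upward (9.18% of all genes). In the interaction it was -0.40 and 31 passed upward (4.77% of all genes).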

How the data were processed

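The authors deposited FPKM values for 54251 genes in 8 libraries of kidney RNA, selected for polyadenylated RNA per the labels' protocols. Alignment was with HISAT2 2.0.5 to mm10 (GRCm38.p6), per the submitters' processing notes, with the counting tool, annotation and FPKM tool not given in the sources used here. Multiplied by gene length, the FPKM of 100% of genes in a library came out as whole multiples of its smallest step (tolerance 1e-06), which gave the fragments behind each value. The denominator that step implies is 1.18 to 1.19 times the gene total in WT_IR and 0.921 to 1.03 times in the other groups, so a scaling that goes with WT_IR is already present. For a 1 kb gene the floor of 3 fragments is 0.148 to 0.206 FPKM (counting error only).

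Tests covered the 15607 genes that averaged 0.5 FPKM or more, on log2(FPKM + 1), a scale that understates changes of low genes. A joint limma fit (version 3.58.1, R 4.3.3) of the 8 libraries estimated a mean for each group and used a trend of variance on mean (4 residual and 3.04 prior degrees of freedom). The Benjamini-Hochberg adjustment ran over all genes in each of 5 comparisons, with a threshold of 0.05, and p-values measure the spread between pools of 3 mice. The code of the fit was checked on simulated counts with few changed genes and the same spread for all genes. That setting is simpler than these data, so the check does not measure the error rate here. Library numbers were not used as pairs. The enzymes, the other gene lists and the motifs were chosen with earlier results of these data known. Values in every library are given for the most abundant enzyme and the 2 with the largest change in WT_IR in each set, and for the 10 largest called differences between responses. In the other lists up to 3 genes with the smallest p in WT_IR are named, plus genes said to be named after their values were seen. Some listed genes are not reported here. Alternatives were other pseudocounts, filters and scalings, voom on the recovered fragments, no trend, a replicate block, only the 2 groups compared, and each library left out.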

Additional observations from a re-analysis of the deposited data

Results flagged for a closer look

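The response to IR differed between the genotypes in 38 of the 43 enzymes, tested as the change in KO_IR minus KO less the change in WT_IR minus WT (limma, adjusted over all genes, on the log2 scale), where 9.62% of all genes tested differed upward. Among tyrosine genes it was 1.38 for Fah, 1.33 for Qdpr and 1.28 for Hgd. On the kynurenine route the values were 2.23 for Acmsd, 2.08 for Aadat, 1.72 for Haao and 1.68 for Kmo. The shared branched-chain steps gave 1.31 for Bckdhb, 1.12 for Bckdha, 1.09 for Dbt and 1.02 for Bcat2. Leucine breakdown gave 1.24 for Ivd, 1.23 for Mccc1 and 1.08 for Mccc2. For valine, isoleucine and propionyl-CoA the values were 1.53 for Aldh6a1, 1.36 for Pcca, 1.34 for Hibadh, 1.07 for Pccb, 1.01 for Acadsb, 0.79 for Acad8 and 0.62 for Hibch. Proline and hydroxyproline genes gave 1.63 for Aldh4a1, 1.03 for Prodh2 and 0.94 for Hoga1. The arginine and creatine genes gave 2.36 for Ass1, 1.94 for Gatm, 1.42 for Asl and 0.61 for Agmat. Glycine and methyl genes gave 3.35 for Inmt, 2.47 for Gldc, 1.61 for Dmgdh, 1.6 for Gcsh, 1.38 for Sardh and 0.58 for Amt. In the set of oxidases and glutamate dehydrogenase the values were 1.48 for Agxt2, 1.43 for Hao2, 1.15 for Dao and 0.93 for Glud1. Every one of the 38 was positive, that is, the fall in WT_IR relative to WT was not matched in KO_IR relative to KO. Groups of 2 libraries are too small for a search for single outlying libraries.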

How the results depend on the processing

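The number of the 43 enzymes that passed stayed at 0 in KO_IR relative to KO and in KO relative to WT under every alternative run. The background of KO_IR relative to KO was itself unsteady. Over all genes 148 rose and 12 fell, but 0 passed in a fit of only the 2 groups. It was also unsteady with KO_IR replicate 1 or either WT_IR library left out. A WT_IR library enters that comparison only through the shared estimate of the spread. The number of enzymes was 39 (TPM) to 43 in WT_IR relative to WT, 39 (TPM) to 42 in KO_IR relative to WT_IR, and 31 (TPM) to 38 in the difference between responses, with 32 when no filter was applied. With 1 library left out the counts were 40 to 42, 40 to 42 and 29 to 37 in these 3 comparisons, lowest in the last without WT_IR replicate 2. Numbers of libraries do not pair the samples (correlations of deviations between -0.12 and 0.16), and with a replicate block the counts were 43, 42 and 36, Agmat, Hibch and Sardh losing their calls for the difference and Afmid gaining one. A fit of only the 2 groups gives no difference between responses. Signs turned for Oat on the TPM scale (0.10 in WT_IR relative to WT, -0.18 for the difference between responses) and for Ddc in KO_IR relative to WT_IR (-0.15 on the TPM scale, -0.091 without KO_IR replicate 1, -0.02 without WT_IR replicate 1, with a range of -0.091 to 0.47 over all libraries left out). In WT_IR relative to WT the call of Oat ended in 11 of the alternatives, of Ddc in 4, of Kynu and Afmid in 2 each and of Agmat in 1, the TPM scale. Hpd passed for the difference with a minimum mean of 5 FPKM, with voom and without KO_IR replicate 2. A pseudocount of 5 FPKM lowered the change of Gatm to 0.93 and of Kynu to 0.56 in KO_IR relative to WT_IR, and voom on fragments raised that of Kynu to 1.86. With 2 pools a group, small differences between the genotypes without injury were beyond the precision of these data.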

Other observations

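The 44 enzymes held 0.997% and 0.888% of all FPKM in KO_IR, 0.419% and 0.359% in WT_IR, 1.12% and 1.02% in KO, and 0.973% and 0.918% in WT. Within each library the share does not depend on how libraries are scaled against each other, and both WT_IR libraries had less than any other library. The methyltransferases Inmt and Nnmt moved in opposite directions, at -3.75 ± 0.28 and 2.28 ± 0.14 in WT_IR relative to WT on the log2 scale. Nnmt was low in WT, and other listed methyltransferases are not set beside them here. Between the dimethylarginine hydrolases, Ddah1 changed by -1.19 ± 0.088 and Ddah2 by 0.74 ± 0.11 there, and Agxt2, which acts on the same compound, by -1.57 ± 0.094. Of the regulators, Klf15, a factor that in mouse liver and muscle drives amino acid breakdown genes, changed by -2.13 ± 0.32 in WT_IR relative to WT (limma adjusted p = 0.00183) and by -0.25 ± 0.32 in KO_IR relative to KO (limma adjusted p = 0.82), and it was named after its values were seen. These are values only, and no cause was tested.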
